A study of Arabidopsis thaliana with 8 samples.

Results

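The regions described are the promoter peaks of the transcription factor GBF2 that were called in Arabidopsis thaliana seedlings both under tunicamycin and under its solvent DMSO. A peak was taken when the authors placed it in their promoter class of up to 1 kb and it overlapped any peak of the other treatment's list by at least 1 bp on the same chromosome. Of the 767 peaks of the tunicamycin list 195 met the rule, which is 195 of its 583 promoter peaks (33.4%, 95% Wilson interval 29.7 to 37.4%). Of the 320 peaks of the DMSO list 195 met it as well, which is 195 of its 221 promoter peaks (88.2%, 83.3 to 91.8%). Over peaks of every class, 36.1% of tunicamycin peaks and 85.0% of DMSO peaks overlapped a peak of the other list. The members were chosen by the called positions and class of the peaks, so these shares describe the selection and carry no test.

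Chromatin was immunoprecipitated with a GFP antibody from whole seedlings of 1 genotype, pGBF2:GBF2-Ypet (Col-0), and sequenced. All groups carry this transgene, in which the GBF2 promoter drives GBF2 fused to the fluorescent protein Ypet, so reads of the transgene fall on the GBF2 locus too. Seedlings aged 5 days spent 6 h in 0.5 µg/mL tunicamycin or in DMSO alone, which gave 4 groups (immunoprecipitate and input of each treatment) of 2 libraries, 8 in all. The deposited lists give 1 value per peak and none per library. Depth and the spread between replicates are therefore unknown, and all intervals cover counting error only.

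GBF2 belongs to the bZIP factors that bind the G-box, a short promoter element with an ACGT core that is shared by genes of light, hormone and stress responses. Relatives such as GBF1 and GBF3 bind the same element and can pair with GBF2. Tunicamycin blocks N-glycosylation, so misfolded proteins collect in the endoplasmic reticulum (ER) and the unfolded protein response raises chaperones of that compartment. A promoter peak found in both treatments is a place where enrichment was called with and without this stress. It does not show that the amount of bound GBF2 was the same, since the score of a peak is the authors' own value. Scores of both lists are printed side by side below. With depth unknown, a difference between them is not read as a difference in bound GBF2.

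The paired peaks lay on top of each other rather than edge to edge. In 192 pairs both peaks were in the promoter class, and they shared a median of 862 bp (95% order-statistic interval 834 to 915), with a range of 332 to 13467 bp. The shorter peak lay wholly inside the longer one in 113 of the 192 pairs, and the lowest cover of a shorter peak was 87.4%. The midpoints were a median of 38.0 bp apart (28.0 to 49.0), within 100 bp in 149 pairs and over 500 bp in 4. The tunicamycin peak was the wider one in 118 pairs and the DMSO peak in 72, while 2 pairs were of equal width. Median widths were 993 bp (950 to 1042) in the tunicamycin list and 915 bp (882 to 953) in the DMSO list, and width can move with the unknown depth.

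**Figure D1:**
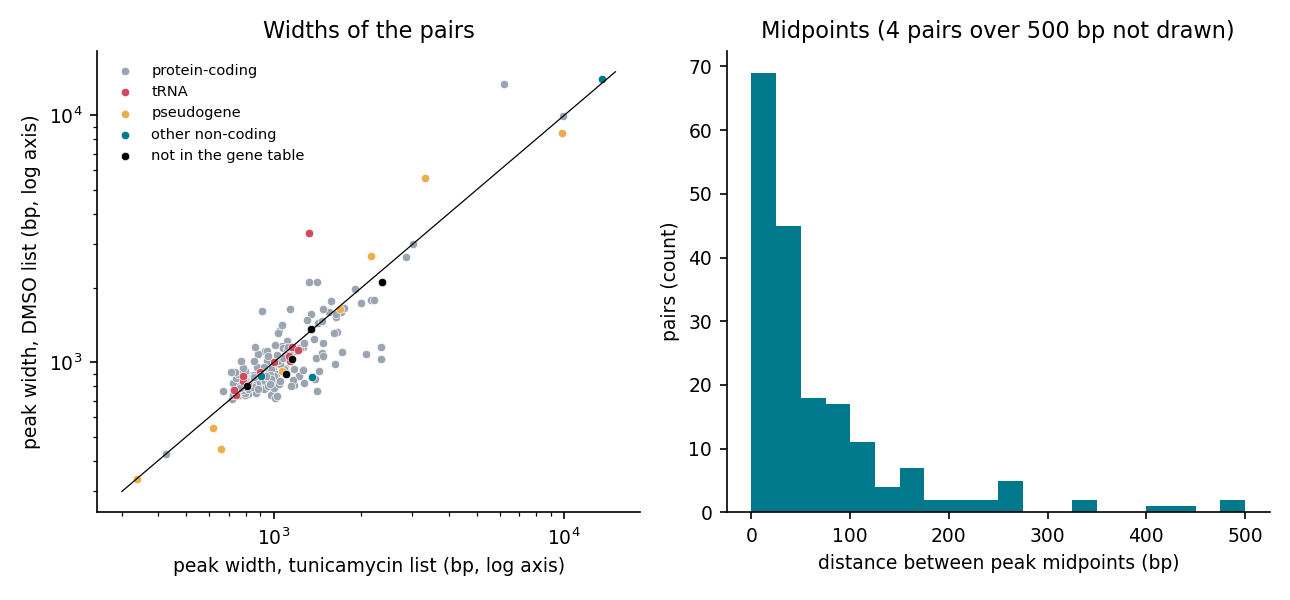
Left, widths of the 192 overlapping promoter pairs in bp, with the tunicamycin peak on the x axis and the DMSO peak on the y axis (both log), coloured by kind of gene, with the line of equal width. Right, number of pairs by distance between the midpoints in bins along the x axis; 149 pairs lie within 100 bp and 4 pairs over 500 bp are not drawn.

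No member lay close to the 1 bp limit of the overlap rule, and few unshared promoter peaks lay just outside it. The members with the shortest overlaps were AT2G12510 with 332 bp, AT5G10340 with 421 bp and AT3G33004 with 446 bp. These overlaps covered 98.5%, 98.8% and 100% of the shorter peak, so they are short because the peaks are narrow. Just outside, the nearest unshared promoter peak of the tunicamycin list was that of SHV3, 963 bp from a DMSO peak with a score of 2.57, followed by RAD23C at 1096 bp. In the DMSO list the nearest was AT5G31909, 203 bp away with a score of 2.60. Within 1000 bp of a peak of the other list lay 1 unshared promoter peak of each list, and within 5000 bp lay 12 tunicamycin and 4 DMSO promoter peaks.

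The 195 tunicamycin members were assigned to 195 genes and the 195 DMSO members to 194, since AT2G08986 took 2 DMSO members. The authors' assignment gave the same gene to both peaks in 187 of the 192 pairs (97.4%, 94.0 to 98.9%). In 5 pairs it did not. The tunicamycin peak at GBF2 overlapped, over 6038 bp, a DMSO peak given to ADNT1, a mitochondrial adenine nucleotide carrier. That of GAPCP-2, a plastid glyceraldehyde-3-phosphate dehydrogenase, was given to AT1G16290 in the DMSO list. That of GRP7, a glycine-rich RNA-binding protein under clock control, was given to the leucine tRNA gene AT2G21670. In the others AT3G02468 was paired with SAMDC, an enzyme of polyamine synthesis, and AT1G11960 with AT1G11970. Except at GBF2, the midpoints of these 5 pairs were at most 68.0 bp apart.

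A further 3 members of each list overlapped a peak of another class in the other list. The tunicamycin members were KMD1 (AT1G80440), a Kelch-repeat F-box protein, whose DMSO peak was in the 5′ UTR class, AT5G01380, with a DMSO peak in the promoter class of 1 to 2 kb, and AT5G54300, with one in the 3′ UTR class. The DMSO members were CYP86A2, a fatty acid hydroxylase of cutin synthesis, and 1 of those at AT2G08986, both in the exon class of the tunicamycin list, and FRO2, the root ferric reductase, in the class of 1 to 2 kb. The authors also listed 16 of the 195 tunicamycin members (8.21%, 5.11 to 12.9%) among their tunicamycin-specific peaks although each overlaps a DMSO peak. HSP60-3A, AT1G02660, GBF2, DAD1 and the ferritin gene FER1 were among them. The share over all tunicamycin peaks was not computed, so 8.21% is not read as high or low.

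Members had a higher median score than the unshared promoter peaks in both lists. In the tunicamycin list they had a median score of 2.85 (2.74 to 2.93) and a range of 2.08 to 7.25, while the 388 unshared promoter peaks had a median of 2.35 (2.33 to 2.37) and reached 3.51. In the DMSO list members had a median of 2.96 (2.89 to 3.05) and a range of 2.11 to 8.75, while the 26 unshared promoter peaks had a median of 2.59 (2.46 to 2.67) and reached 3.03. A DMSO score of 2.96 held rank 160 of the 320 peaks, so the median of members was near the middle of that list. Shared peaks of other classes had medians of 2.79 (2.62 to 2.98) in the tunicamycin list and 3.19 (2.97 to 3.40) in the DMSO list, the first below and the second above that of the members. The 20 highest-scoring promoter peaks of each list were all members, and so were 48 of the 50 highest in the tunicamycin list and 50 of 50 in the DMSO list. A strong peak is easier to call in both lists, so the score is tied to the rule and these differences were not tested.

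**Figure D2:**
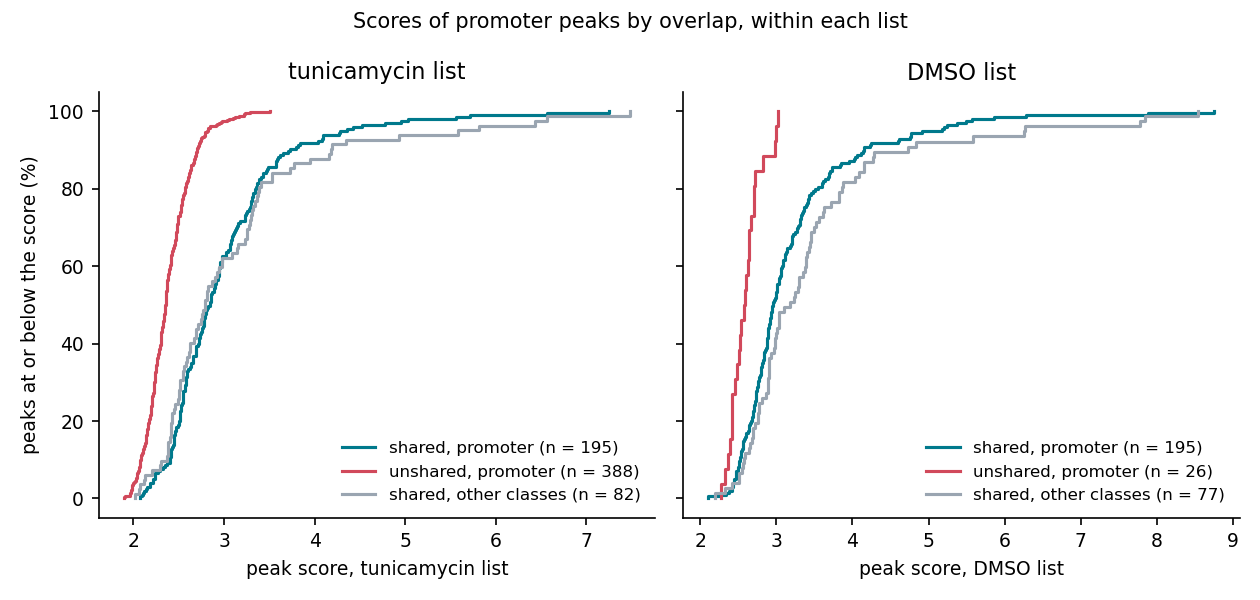
Cumulative share of peaks (y axis, %) at or below each score (x axis) in the tunicamycin list (left panel) and the DMSO list (right panel), for shared promoter peaks, unshared promoter peaks and shared peaks of other classes. The curve of unshared promoter peaks ends at 3.51 in the tunicamycin list and at 3.03 in the DMSO list, while shared promoter peaks reach 7.25 in the tunicamycin list and 8.75 in the DMSO list.

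The share of promoter peaks found in both treatments was highest in the highest-scoring bin of both lists and lower in the others. With the promoter peaks of the tunicamycin list split into 5 equal bins from high to low score, 83.8% (76.0 to 89.4%), 41.0%, 26.5%, 6.90% and 8.62% (4.75 to 15.1%) were members. In the DMSO list the shares were 100% (92.1 to 100%), 97.7%, 93.2%, 79.5% and 70.5% (55.8 to 81.8%). The lowest bin of the tunicamycin list held 10 members, with YUC8, an auxin synthesis gene, the highest of them at 2.22. Score and overlap are tied here as well, so the shares were not tested.

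**Figure D3:**
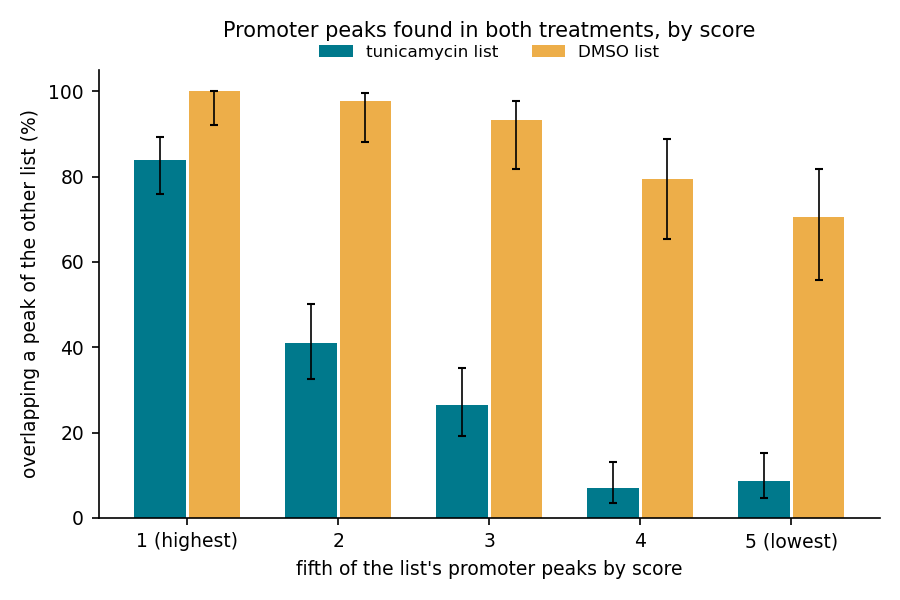
Share of promoter peaks (y axis, %) that overlap a peak of the other list, in 5 bins by score from highest to lowest (x axis), for the tunicamycin list (left bar of each pair) and the DMSO list (right bar). Error bars are 95% Wilson intervals; the share is 83.8% in the highest, 6.90% in the next to lowest and 8.62% in the lowest bin of the tunicamycin list, and 100% in the highest and 70.5% in the lowest bin of the DMSO list.

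Several of the strongest members were the same genes in both lists, and others were not. GBF3, a further G-box factor gene, led the members of both lists, with a score of 7.25 in the tunicamycin list (chromosome 2, 18998297 to 19001147, TAIR10) and 8.75 in the DMSO list (18998302 to 19000971). KMD1 scored 6.56 at rank 4 of the tunicamycin list, and its DMSO peak 6.25 at rank 8. CYP86A7, a fatty acid hydroxylase, scored 5.72 under tunicamycin at rank 7 and 5.49 under DMSO at rank 12. HSP60-3A, a mitochondrial chaperonin, scored 5.56 at rank 9 of the tunicamycin list (chromosome 3, 4566245 to 4569255) and 7.88 at rank 3 of the DMSO list. AT3G03790, AT1G02660 and OPT3, a transporter of iron and copper in the phloem, followed in the tunicamycin list with 5.03, 4.96 and 4.78, and had 5.86, 5.25 and 4.77 in the DMSO list. PRR7, a repressor of the circadian clock, scored 4.42 under tunicamycin at rank 15 and 5.18 under DMSO at rank 16. DAD1, a lipase of jasmonate synthesis, scored 4.27 under tunicamycin at rank 19 and 5.21 under DMSO at rank 15. Other strong members ranked lower in the other list. GTE7 and BRU6 held ranks 24 and 30 of the tunicamycin list, against 182 and 183 of the DMSO list. AT3G41761 and AT2G01008 held ranks 17 and 21 of the DMSO list, against 65 and 77 of the tunicamycin list.

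Across the 192 pairs the scores moved together, with a Pearson correlation of 0.835 and a Spearman correlation of 0.673. Pairs are not replicates, and the points share the genome position, its background and peak width, so the correlation is a description. Without the 7 pairs that were over 3 kb wide in either list the Pearson value was 0.842 and the Spearman value 0.664 (n = 185). For a comparison of order, the 192 pairs were given a place from 1 (highest score) downwards in each list. Of the 10 highest places 8 pairs were common to both lists, of the 20 highest 13, and of the 50 highest 34. The 2 places of a pair differed by a median of 28.0, by at most 20 in 85 pairs and by over 100 in 9.

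**Figure D4:**
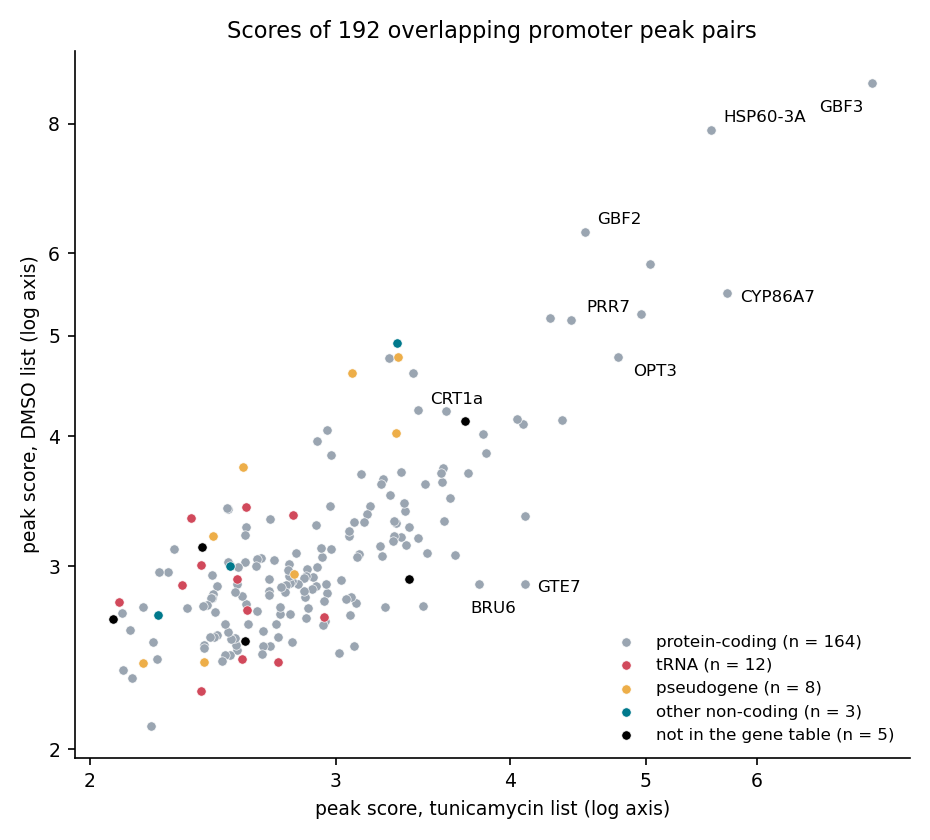
Authors' score of the tunicamycin peak (x axis, log) and of the DMSO peak (y axis, log) in each of the 192 pairs, 1 point per pair, coloured by kind of gene. GBF3 stands at the top right with 7.25 in the tunicamycin list and 8.75 in the DMSO list, and GTE7 and BRU6 lie low for their tunicamycin score.

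Some pairs held very different places in the lists. The cohesin subunit gene SYN2 was at place 62 in the tunicamycin list and 174 in the DMSO list, and the clock gene PRR5 at 70 under tunicamycin and 179 under DMSO. GTE7, a bromodomain protein gene, was at place 12 (score 4.09) in the tunicamycin list and 108 (2.89) in the DMSO list. BRU6, the auxin-conjugating enzyme GH3.2 by the table's synonyms, was at 17 (3.80) under tunicamycin and 109 (2.89) under DMSO. ATTPPA, a trehalose-6-phosphate phosphatase gene, PSBR, a subunit of photosystem II, the LOB-domain factor gene LBD41 and AT1G13640 also stood at least 79 places higher in the tunicamycin list. In the other direction the methionine tRNA gene AT1G78250 was at place 175 in the tunicamycin list and 49 in the DMSO list. AT2G08986, AT4G06700, AT2G16586, AT5G19257, AT2G12510, the leucine tRNA gene AT4G08345 and MGP3, a gene for a mitochondrial RNA polymerase, were likewise at least 88 places higher in the DMSO list. These pairs are the extremes of the order, and their differences were not tested, as no spread between libraries is known.

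Over all 192 pairs 106 were placed higher in the tunicamycin list, 80 in the DMSO list and 6 held the same place. By kind of gene, protein-coding pairs held a median place of 89.5 in the tunicamycin list and 96.0 in the DMSO list, and 97 of the 164 were placed higher in the tunicamycin list against 62 in the DMSO list, a split close to that of all pairs. The 8 pairs at pseudogenes had median places of 117 in the tunicamycin list and 44.5 in the DMSO list, and 6 of the 8 were placed higher in the DMSO list, against 80 of all 192 pairs. Of the 7 pairs over 3 kb wide, 6 were placed higher in the DMSO list. These groups are small, and no difference from the other pairs was tested. AT3G60930 and AT4G06700 count both among the pseudogene pairs and among the wide pairs. The pseudogenes AT3G33000, AT3G33002 and AT3G33004 are neighbours, with members 149 and 1478 bp apart in the tunicamycin list. The wide pairs were not all of one kind: AT3G41761, a non-coding RNA gene, had the widest peaks with 13467 bp in the tunicamycin list and 14031 bp in the DMSO list, and AT2G01008, protein-coding, lay at the start of chromosome 2 (825 to 10700 in the tunicamycin list). The pseudogene AT3G60930 (9822 bp under tunicamycin, 8471 bp under DMSO) and the GBF2 peak (6193 bp, overlapping a DMSO peak of 13432 bp) were next. A peak this wide reaches past the 1 kb of its class. Over 3 kb wide were 6 of 195 tunicamycin members and 8 of 195 DMSO members. Of the unshared promoter peaks, 0 of 388 in the tunicamycin list and 0 of 26 in the DMSO list were as wide. Of the shared peaks of other classes, 2 of 82 in the tunicamycin list and 1 of 77 in the DMSO list were as wide. Width comes from the positions that the overlap rule used, so it is tied to the rule and these counts were not tested.

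Most members lay at protein-coding genes, 167 of 195 in each list (85.6%, 80.0 to 89.9%), which make up 72.4% of the nuclear genes of the RefSeq table. Among unshared promoter peaks the share was near that of the members in the tunicamycin list, 82.0% (77.8 to 85.5%). In the DMSO list it was 61.5% (42.5 to 77.6%) of 26 peaks. Transfer RNA genes took 12 tunicamycin members (6.15%, 3.55 to 10.4%) and 13 DMSO members (6.67%, 3.94 to 11.1%), while they make up 1.65% of the nuclear genes of the RefSeq table. Among unshared promoter peaks their share was 12.9% (9.91 to 16.6%) in the tunicamycin list and 30.8% (16.5 to 50%) in the DMSO list. The 12 tRNA pairs held low places, a median of 139 in the tunicamycin list and 124 in the DMSO list, so a lower share among members and a lower score go together here, and their part in each other was not tested. Leucine tRNA genes were the most frequent, with 4 tunicamycin and 5 DMSO members, followed by methionine with 2 in each list. The share of each amino acid over all tRNA genes was not computed, so no preference is read from these counts.

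The G-box factors themselves were among the members. By gene, GBF2 was a member in the tunicamycin list alone, and reads of the transgene also fall on its locus. Besides GBF3 and GBF2, GBF1 had a peak with a score of 3.65 at rank 35 of the tunicamycin list (chromosome 4, 17312098 to 17313032) and 3.08 at rank 127 of the DMSO list. HVA22K, of the HVA22 stress protein family and chosen after its values were seen, had a member 4193 bp from that of GBF1 in the tunicamycin list and 4079 bp from it in the DMSO list. Of the 10 listed G-box and related bZIP genes, bZIP53 had an unshared tunicamycin promoter peak and the other 6 none. Pathway lists were chosen with earlier results of these data known, so their counts support nothing. Over 16 lists, 22 of 172 matched genes had a member in both lists and 4 more in a single list, and 0.583% of the 27444 protein-coding nuclear genes had one in both. That background covers members in both lists alone. For members in a single list and for unshared tunicamycin promoter peaks, no share over all genes was computed.

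Genes of the ER and of secretion that had members in both lists cover folding and transport. CRT1a and CRT1b, calreticulins that bind unfolded glycoproteins, scored 3.43 and 2.98 in the tunicamycin list, against 4.24 and 3.83 in the DMSO list, at places 31 and 72 under tunicamycin, against 15 and 26 under DMSO. SHD, the HSP90 of the ER, scored 3.39 (place 33) in the tunicamycin list and 3.28 (place 57) in the DMSO list. P58IPK, a J-domain co-chaperone, scored 2.76 under tunicamycin and 2.88 under DMSO. These 4 were the members among 20 listed chaperones and folding enzymes, of which 5 had an unshared tunicamycin promoter peak and 11 none. SAR1B, the GTPase that starts vesicle export from the ER, had a member 3071 bp from that of CRT1a in the tunicamycin list and 3233 bp from it in the DMSO list, and SAR1B itself scored 2.90 under tunicamycin and 3.29 under DMSO. It was the 1 member among 12 listed genes of ER-associated degradation, transport and glycosylation, and the other 11 had no peak. Of the other genes of secretion, chosen after their values were seen, ERD2, the receptor that returns ER proteins, scored 2.46 under tunicamycin and 2.71 under DMSO, RAB1A, a GTPase of traffic to the Golgi, 2.35 under tunicamycin and 2.74 under DMSO, and the calcium pump gene ECA4 2.59 under tunicamycin and 3.22 under DMSO. Of these 8 pairs, which mix listed genes with genes chosen after their values were seen, 6 were placed higher in the DMSO list, against 80 of all 192 pairs. The 9 listed sensors and transcription factors of the unfolded protein response had no member.

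Listed clock genes with members were PRR7, PRR5, PRR3 and TOC1, all of the pseudo-response regulator family. PRR3 scored 2.79 in the tunicamycin list and 2.90 in the DMSO list, PRR5 3.02 under tunicamycin and 2.47 under DMSO, and TOC1 2.55 under tunicamycin and 2.49 under DMSO. Of these 4, PRR7 alone stood among the 10 highest places, at place 8 in both lists. Of the 15 listed clock genes 2 had an unshared tunicamycin promoter peak, and 9, PRR9 of the same family among them, had none. RVE1, a MYB-like factor linking the clock to auxin, and TIC, a nuclear regulator of the clock, chosen after their values were seen, scored 2.73 and 2.82 in the tunicamycin list and 2.74 and 2.88 in the DMSO list.

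Of the 4 pairs at iron genes the median place was 34.0 in the tunicamycin list and 47.0 in the DMSO list. OPT3, counted among them, was named for its high score and is not one of the listed iron genes. The median therefore depends in part on how the pairs were chosen, and no high place of iron genes is read from it. Besides OPT3, the mitochondrial ferric reductase gene FRO3 scored 3.43 at rank 48 of the tunicamycin list and 3.19 at rank 113 of the DMSO list. FER1, the plastid iron store ferritin, scored 3.34 under tunicamycin and 3.70 under DMSO. FRO2 was a member of the DMSO list alone by class, since its tunicamycin peak, with 4.19, was of another class, against 5.38 for its DMSO peak. PYE, a bHLH factor of the iron deficiency response that was chosen after its values were seen, scored 2.95 under tunicamycin and 2.89 under DMSO. Of the 15 listed genes of iron storage and uptake, 3 had a member, 2 an unshared tunicamycin promoter peak and 10 none.

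Genes of the plastid and of photosynthesis were a further group, 13 in all, mostly chosen after their values were seen. DGD1, which makes the main bilayer galactolipid of thylakoids, led them with 4.09 at place 11 of the tunicamycin list and 3.35 at place 48 of the DMSO list. The photosystem II genes PSBQ-2, PSBR and LHCB6 scored 3.10, 3.07 and 3.09 in the tunicamycin list, against 2.76, 2.69 and 3.31 in the DMSO list. DRT112, a plastocyanin, scored 3.02 under tunicamycin and 2.91 under DMSO. HEME2, of tetrapyrrole synthesis, scored 3.23 under tunicamycin and 3.14 under DMSO, and CH1, which makes chlorophyll b, 2.46 under tunicamycin and 2.87 under DMSO. Of the 13 pairs 7 were placed higher in the tunicamycin list and 6 in the DMSO list, near the split of all pairs (106 and 80 of 192). Of the 12 listed light-harvesting genes LHCB6 alone had a member.

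Abscisic acid and dehydration genes had 7 members by a choice made after their values were seen, apart from ERD10. ABCG25, an exporter of abscisic acid, scored 3.49 at place 27 of the tunicamycin list and 3.09 at place 73 of the DMSO list. TMAC2, a repressor of abscisic acid responses, scored 3.34 under tunicamycin and 3.20 under DMSO. ERD10, a dehydrin, scored 2.98 under tunicamycin and 3.11 under DMSO, and GolS2, which makes galactinol for raffinose sugars, 2.95 under tunicamycin at place 75 and 4.05 under DMSO at place 21. MYBR1, the factor MYB44, scored 2.78 under tunicamycin and 3.01 under DMSO, and RD28, a plasma membrane water channel, 2.51 under tunicamycin and 3.03 under DMSO. Of the 25 listed genes of abscisic acid signalling and response, ERD10 alone had a member and 6 had an unshared tunicamycin promoter peak.

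Hormone, sugar and peroxisome genes made up smaller groups. YUC9 and YUC8, flavin monooxygenases of auxin synthesis, scored 2.77 and 2.22 in the tunicamycin list, against 2.97 and 2.54 in the DMSO list, and the other 9 listed YUC genes had no peak. TPS11, of the trehalose phosphate synthase family, scored 3.82 at rank 29 of the tunicamycin list and 4.03 at rank 40 of the DMSO list. CAT2, the main leaf catalase, scored 2.89 under tunicamycin and 2.85 under DMSO. HAOX2, a hydroxy acid oxidase, and LON2, a peroxisomal protease, chosen after their values were seen, scored 3.23 and 2.90 in the tunicamycin list, against 3.60 and 2.87 in the DMSO list. HSP101, which dissolves heat-induced aggregates, scored 2.23 under tunicamycin at rank 597 and 2.44 under DMSO at rank 298, near the low end of both lists. BBX28, a B-box protein of light signalling, scored 3.60 under tunicamycin and 4.23 under DMSO.

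**Figure D5:**
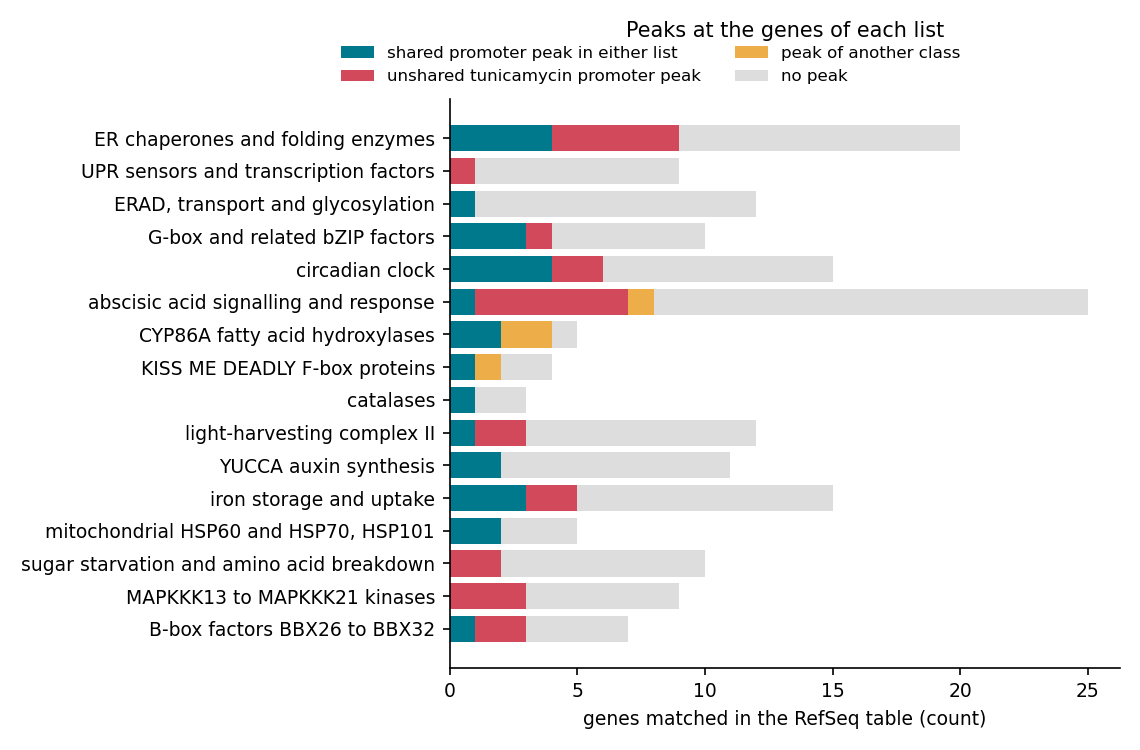
Number of genes (x axis) of each of the 16 pathway lists (y axis) with a shared promoter peak in either list, an unshared tunicamycin promoter peak, a peak of another class, or no peak. The lists hold 172 matched genes, of which 26 have a shared promoter peak in at least 1 list.

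The weakest members were close to the low end of their lists. In the tunicamycin list they were AT3G22968 with a score of 2.08, the leucine tRNA gene AT5G09975 at rank 705, AT5G06220 and AT1G72510 with 2.11, and AT1G52220, a thylakoid curvature protein by its synonyms, with 2.14. Their DMSO peaks scored 2.67, 2.77, 2.71, 2.39 and 2.60. The weakest DMSO members were AT5G50230 with 2.11, whose tunicamycin peak scored 2.21, the tyrosine tRNA gene AT3G18952, AT5G65300, AT1G72510 and AT3G33004. AT1G72510 was the 1 gene among the 5 weakest members of both lists.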

How the data were processed

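Per the labels, chromatin immunoprecipitated with a GFP antibody and its input were sequenced from whole seedlings, with 2 libraries per group. The build TAIR10 and the tools MACS2 2.1.2, SAMtools 1.8, Bowtie 1.1.2, cutadapt 1.8.1 and FastQC 0.11.5 come from the submitters' processing notes. Not stated there are settings, the peak threshold, any pooling and the making of the specific list. For each peak the authors deposited a score per peak, a signal value per the file headers, with positions, a class and 1 gene. Overlaps, places, widths, 95% Wilson intervals and order-statistic intervals of medians were computed with Python 3.11.15, pandas 2.3.3, numpy 2.4.6 and SciPy 1.17.1, and figures with matplotlib 3.10.9. The overlap step was tested on simulated data. Names and gene kinds came from a RefSeq table of TAIR10.1, which holds 190 of the 195 tunicamycin member genes and 190 of the 194 DMSO member genes. The members and lists were chosen with earlier results of these data known. Genes were named by rule: the 20 strongest, 5 weakest and 5 widest members per list, the 8 pairs at each end of the place difference, pairs with different genes, genes with several members and list members. Other genes were chosen after their values were seen. No test was run. Alternatives covered the overlap, the class and the strongest 50% of each list.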

Additional observations from a re-analysis of the deposited data

How the results depend on the processing

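The 195 tunicamycin and 195 DMSO members stayed 195 each when at least 50% of the shorter peak had to be covered, and were 174 each with midpoints within 200 bp and 192 each with the promoter class in both lists. Wider promoter classes, up to 2 kb and up to 3 kb, gave 213 and 223 in each list. With the strongest 50% of each list, where fewer peaks enter, 91 members were left in the tunicamycin list and 91 in the DMSO list, 86 genes had a member in both, and the median widths were 1122 bp in the tunicamycin list and 1083 bp in the DMSO list. Of 34 values recomputed, these 5 moved and the other 29 did not by the limits used. No paired analysis was possible because the lists hold no values per library. The planned search for the G-box and other motifs and the orientation of upstream neighbours were not run, as no sequence and no strand of neighbouring genes were used here.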

Other observations

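Regulators of transcription and of small RNAs outside the pathway lists also had shared promoter peaks; all of these were chosen after their values were seen. TPL, a corepressor of auxin and other hormone responses, scored 2.59 in the tunicamycin list and 2.76 in the DMSO list, at place 131 under tunicamycin and 135 under DMSO. AGO1, the main effector of microRNAs, scored 2.74 under tunicamycin and 2.70 under DMSO. The factor genes NAC2, WRKY28, ERF15 and NF-YA1 scored 2.69, 2.69, 2.85 and 2.69 in the tunicamycin list, against 2.84, 2.92, 2.84 and 2.82 in the DMSO list. RSH3, of plastid stringent response signalling, scored 3.11 under tunicamycin and 3.06 under DMSO.

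The files code the strand of each gene as 1 or 2. Genes of strand 1 made up 37.4% (30.9 to 44.4%) of the tunicamycin members and 42.0% (37.2 to 47.0%) of the unshared tunicamycin promoter peaks. In the DMSO list they made up 39.0% (32.4 to 46.0%) of the members and 50% (32.1 to 67.9%) of the unshared promoter peaks. Among shared peaks of other classes the share was 52.4% (41.8 to 62.9%) in the tunicamycin list and 49.4% (38.5 to 60.3%) in the DMSO list. The share over all genes was not computed, so no skew of the members is read from these values. Most members of the lists are the same sites, and no test was run.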
